A study of Mus musculus with 8 samples.

Results

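Among 42995 array probes in mouse aortic smooth muscle cells, 318 read RNAs that were both lower without Srf and higher with added Myocd. They were selected on these same measurements. A probe is a member if its mean log2 level in Srf knockout cells lay at least 1 below the wild-type mean, and its mean in wild-type cells given Myocd lay at least 1 above it, which is a 2-fold difference in each direction. The members are 0.74% of the table, 13.7% of the 2320 probes that were at least 2-fold lower in the knockout and 14.1% of the 2257 that were at least 2-fold higher with Myocd. Both differences, which share the wild-type arrays, are therefore given as a description, and nothing is read from the model's calls on them. Levels in aorta and liver took no part in this rule. Whether a probe was above background on the tissue arrays did count towards its place in the table.

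Serum response factor (SRF) is a transcription factor that binds CArG elements, and many genes of the smooth muscle contractile apparatus and the actin cytoskeleton carry such elements. Myocardin, encoded by Myocd, does not bind CArG elements by itself and acts as a coactivator of SRF in smooth and cardiac muscle. Smooth muscle cells of the aortic wall are contractile and lose part of their contractile gene programme when grown in culture. The members are RNAs that in these cells moved with both arms of this pair.

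The arrays are 1-colour Agilent arrays designed to read mouse mRNAs and long non-coding RNAs. Cultured mouse aortic smooth muscle cells at passage 3 formed 3 groups of 2 arrays, all exposed to adenovirus for 3 days at an MOI (infectious virus particles per cell) of 100. The groups were wild-type cells with the empty virus, Srf knockout cells with the empty virus, and wild-type cells with the Myocd virus, so that every cultured group carried a virus. Freshly isolated wild-type aorta and liver had 1 array each; their titles name no virus. How Srf was deleted, the strain, age and number of animals, and whether the replicates came from separate animals or cultures are not given in the sources used here, so the spread between replicates may be technical. Slide 1 carried the 4 arrays of wild-type and knockout cells with the empty virus, and slide 2 the other 4. Knockout and wild-type cells can therefore be compared within a slide, as can the tissues, while slide and Myocd cannot be told apart. Comparisons of a tissue with wild-type or knockout cells also cross slides.

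No member carries a gene symbol or RefSeq accession in the files, so members are named by the maker's identifier. No probe is tied here to Srf, Myocd, a smooth muscle marker or a liver marker, so neither the labels nor the cell types were checked against markers. Brightness, as the 75th percentile of each array's processed intensity, ran from 459 to 507 in culture and was 371 in aorta and 167 in liver. All levels below are the authors' deposited log2 values, whose medians over the table were 7.27 on each cultured array, 7.21 in aorta and 7.16 in liver. Each probe has its own brightness, so levels of different probes do not rank their RNAs. Where probes are divided by wild-type level, or sets by their median level, this is a description. A probe is called dim where the scanner software did not mark it well above background.

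By the class of their identifier, 317 of the 318 members were ASMM10P probes, out of 41881 in the table (0.757%). The last was a mouselincRNA probe, 1 of 277 (0.361%). None of the 365 ASMM10UP, 424 humanlincRNA and 48 MM9LINCRNAEXON probes was a member. At 0.74% for the whole table, classes of these sizes would hold few members in any case, and the ASMM10P identifier does not say whether a probe reads a coding or a non-coding RNA. The mouselincRNA member, mouselincRNA1512-_P1, stood at 7.79 and 7.69 on the wild-type arrays, 6.52 and 6.29 on the knockout arrays, 10.24 and 10.05 on the Myocd arrays, 9.66 in aorta and 7.56 in liver. Its 3 cultured groups did not overlap, and aorta lay near its Myocd level and 4.27-fold above liver.

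The members' fall in knockout cells had a median of -1.59 on the log2 scale, with quartiles of -2.20 and -1.27 and a range from -7.50 to -1.01. As folds this is a median of 3.02-fold lower, from 2.01-fold to 180-fold. Their rise with Myocd had a median of 1.77, with quartiles of 1.33 and 2.60 and a range from 1.00 to 8.74, or a median of 3.42-fold higher, from 2.01-fold to 426-fold. Over the whole table the median differences were -0.04 and -0.06. The rise exceeded the fall at 179 members and the fall exceeded the rise at 139. A fall of 2 or more on the log2 scale was found at 98 members, a rise of that size at 128, and both at 40, counted on the deposited values with dim levels included. Both differences reached 3 at 6 members and 4 at 2 members. At 59 members both stayed under 1.5.

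**Figure D1:**
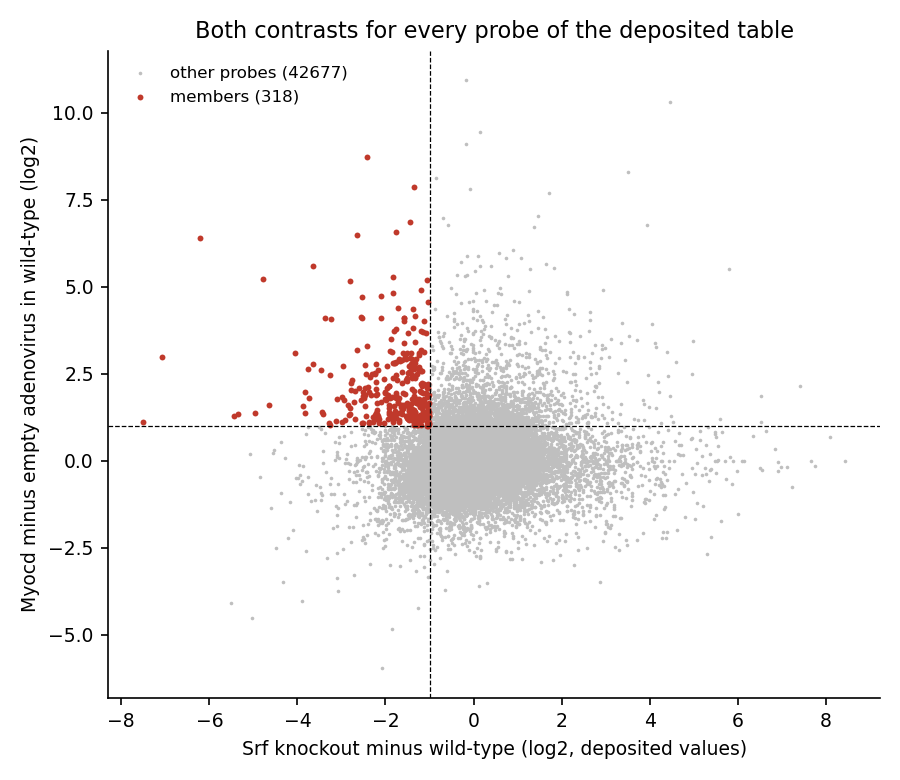
Each point is a probe of the deposited table, with knockout minus wild-type on the horizontal axis and Myocd minus wild-type on the vertical axis (both log2, means of 2 arrays), and dashed lines at the thresholds of the rule. The 318 members, in red, fill the upper left corner by the rule, and few reach a difference of 4 (9 for the fall, 28 for the rise).

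The median member stood at 6.11 and 6.16 on the knockout arrays, at 7.90 and 7.89 on the wild-type arrays and at 10.26 on both Myocd arrays. At 314 of 318 members the single arrays stood in the order knockout, wild-type, Myocd with no overlap, where 7.17% of all probes did so. The rule required that order of the means, so nothing is read from this count. Limma's fit over the 6 cultured arrays gave 284 members an adjusted p under 0.05 for lower levels in the knockout (10.3% of all probes). For higher levels with Myocd 288 members had this (7.75% of all probes), and 276 had both (1.52% of all probes). These counts too come from the contrasts that chose the members. The typical SD between the 2 replicates over the members was 0.23 in the wild-type group, 0.15 in the knockout group and 0.077 in the Myocd group, against 0.18, 0.096 and 0.099 over the table.

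In 4 members the replicates overlapped. ASMM10P008340 stood at 10.50 and 9.01 in wild-type, 8.23 and 9.14 in knockout and 10.57 and 10.95 in Myocd cells. Its second knockout array lay above its second wild-type array. ASMM10P056829 stood at 5.37 and 4.78 in wild-type, 3.87 and 3.91 in knockout and 9.10 and 5.01 in Myocd cells. Its place among the members rested on 1 Myocd array, and the SD of 2.90 between the Myocd arrays was the largest of any member. In ASMM10P025810 and ASMM10P052233 a knockout array lay above a wild-type array at levels near background. At the thresholds, ASMM10P042757 was the member with the smallest fall, -1.01, and ASMM10P037708, at -0.998, just missed it. ASMM10P008340 had the smallest rise, 1.00, and ASMM10P047997, with a fall of -2.01 and a rise of 0.999, was just outside. These gaps at the thresholds are smaller than the SD between replicates.

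All 318 members were well above background on both Myocd arrays, where 92.1% of all probes were. On both wild-type arrays 310 members were so (93.9% of all probes), and on both knockout arrays 245 (96.8% of all probes). The rule took probes high with Myocd and low in the knockout, so these counts are only a description. At 47 members both knockout arrays were dim. For 40 of these that were bright on both wild-type arrays, the fall is a lower bound, computed on each dim array against the lowest level among probes above background there, or the probe's own value if that is higher. This bound ran from 1.33-fold to 32.5-fold with a median of 2.22-fold, and the highest was that of ASMM10P010055. At 2 members, ASMM10P018057 and ASMM10P023677, all wild-type and knockout arrays were dim, so that their fall without Srf was not measured above background. Their place in the table rested on the Myocd and tissue arrays.

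The 10 members with the largest smaller effect, meaning the smaller of the fall and the rise, were ranked on the deposited values. In ASMM10P033423 and ASMM10P048327 both knockout arrays were dim, so their fall, and with it their place among the 10, was not measured. ASMM10P000157 led the others. It stood at 10.39 and 10.37 in wild-type, 4.08 and 4.28 in knockout and 16.71 and 16.85 in Myocd cells, 73.6-fold lower and 84.3-fold higher than wild-type (log2 differences -6.20 and 6.40, SE 0.13 each). Aorta, at 6.98, lay between its knockout and wild-type levels, and liver, at 3.91, was dim. The second, ASMM10P005241, stood at 11.56 and 11.28 in wild-type, 6.87 and 6.42 in knockout and 16.62 and 16.64 in Myocd cells (-4.77 and 5.21, SE 0.19 each). Here aorta, at 17.59, was above the Myocd level, and liver, at 7.01, lay near the knockout level and 1531-fold below aorta. These 2 members, alike in the cultured cells, thus differed widely between cells and vessel.

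ASMM10P006969 had the second largest fall of all members, 135-fold, from 11.90 and 11.91 in wild-type to 4.75 and 4.90 in knockout cells, and rose 7.97-fold to 14.83 and 14.97 with Myocd. Aorta stood at 14.23, near the Myocd level, and liver was dim at 2.44, so aorta was at least 803-fold above liver. ASMM10P019152 gave a like picture. It stood at 8.33 and 8.34 in wild-type, 5.02 and 5.17 in knockout, 12.31 and 12.52 in Myocd cells, 12.76 in aorta and 3.17 in liver, at least 290-fold below aorta. ASMM10P048327 stood at 5.37 and 4.88 in wild-type, at 2.33 and 2.32 in knockout, where it was dim, and at 10.15 and 10.43 in Myocd cells, with 10.96 in aorta and a dim 2.44 in liver. For it the fall was at least 2.79-fold and the excess of aorta over liver at least 83.3-fold. In all 3, aorta lay within 1 log2 unit of the Myocd cells.

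A pair of bright members kept clear levels in every culture. ASMM10P053563 stood at 14.97 and 15.17 in wild-type, 11.48 and 11.38 in knockout, 17.80 and 17.92 in Myocd cells, 17.06 in aorta and 11.49 in liver. Liver matched its knockout level, 47.5-fold below aorta. ASMM10P042737 stood at 13.29 and 12.89 in wild-type, 10.13 and 10.14 in knockout, 15.75 and 15.89 in Myocd cells, 14.74 in aorta and 5.55 in liver, 581-fold below aorta. Liver here was far below the knockout cells.

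Like ASMM10P000157, the other 3 of the 10 were not high in aorta. ASMM10P033393 stood at 10.43 and 10.41 in wild-type, 6.36 and 6.37 in knockout and 13.39 and 13.62 in Myocd cells, but at 8.86 in aorta and 6.94 in liver. ASMM10P033423 stood at 6.06 and 6.68 in wild-type, 3.13 and 2.32 in knockout (dim, so at least 6.59-fold lower) and 12.01 and 11.92 in Myocd cells, with 4.84 in aorta. ASMM10P022824 stood at 9.07 and 9.81 in wild-type, 6.09 and 6.03 in knockout and 13.59 and 13.48 in Myocd cells, and was dim in both tissues. For these RNAs the level in the whole vessel was below that of the cultured wild-type cells. In bulk samples fewer cells of a type and less RNA per cell cannot be told apart.

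**Figure D2:**
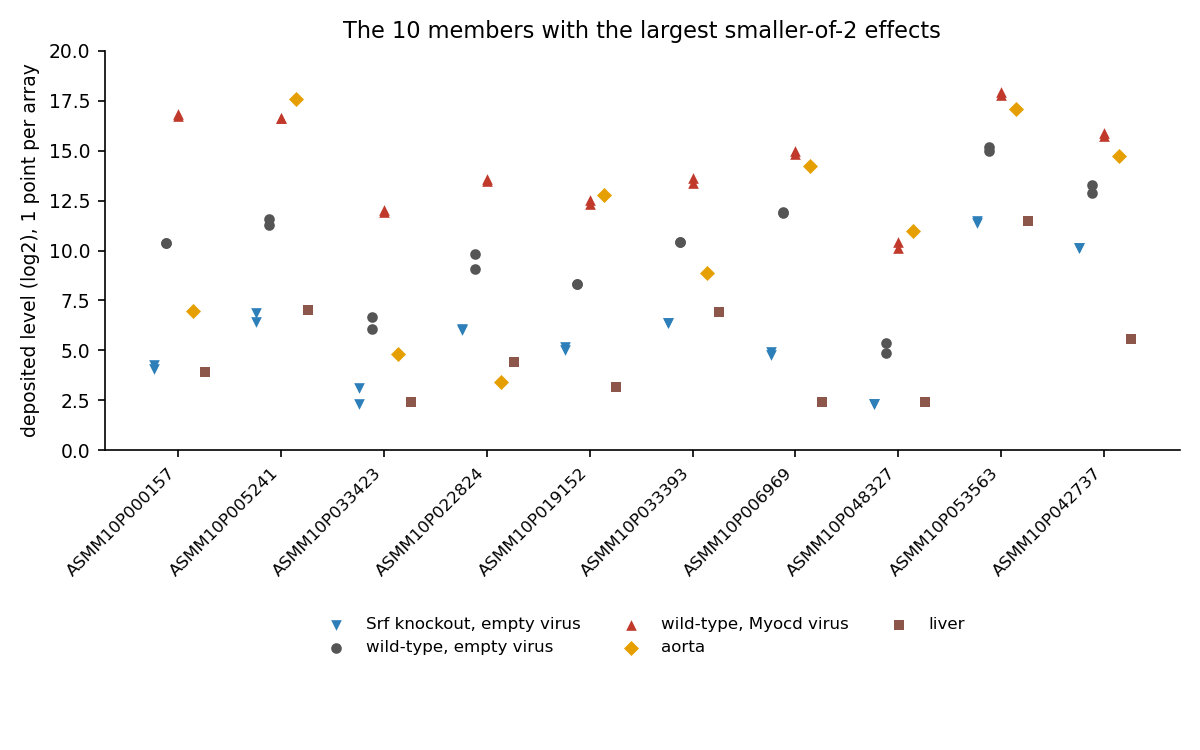
The deposited log2 level of the 10 members with the largest smaller effect, 1 point per array, with knockout, wild-type and Myocd cells (2 arrays each) and aorta and liver (1 each) as separate symbols. In ASMM10P005241 aorta reaches 17.59, above the Myocd cells, while in ASMM10P022824 aorta, at 3.43, lies below the knockout cells.

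The member with the largest fall was not restricted to the vessel. ASMM10P053818 stood at 12.94 and 13.25 in wild-type and 5.77 and 5.43 in knockout cells, 180-fold lower, and rose only to 14.20 and 14.23 with Myocd. It was higher still in both tissues, at 16.80 in aorta and 17.7 in liver. Its high level in liver set it apart from the leading members above.

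Of the 3 members with the largest rises, ASMM10P047496 stood at 6.35 and 6.92 in wild-type, 4.31 and 4.12 in knockout and 15.33 and 15.41 in Myocd cells, 426-fold above wild-type. Aorta, at 6.06, held no such level, and liver was dim. ASMM10P018057 was dim in wild-type cells (3.77 and 3.90) and reached 11.74 and 11.66 with Myocd, at least 219-fold higher, with 6.55 in aorta and 8.20 in liver. ASMM10P015151 rose 116-fold, from 7.21 and 7.10 to 13.94 and 14.08, fell to 5.84 and 5.58 without Srf, and stood at 9.85 in aorta and at a dim 4.10 in liver. None of these 3 reached in aorta the level that the Myocd virus gave in culture.

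Across the members, levels in aorta lay above those in liver. The median was 7.65 in aorta and 5.05 in liver, a median difference of 2.02 against -0.15 over the table, and 225 members (70.8%) were higher in aorta, against 45.7% of all probes. Aorta exceeded liver at least 4-fold at 159 members (50%), where 17.8% of all probes did, and lay at least 4-fold below it at 20 (6.29%), where 11.6% of all probes did. With 1 array of each tissue there is no replicate check and no test. With dim levels raised to the lowest level among well measured probes, a choice made after seeing the data, the 159 became 133 (41.8%, with 14.6% for the table). The quartiles of the members' difference were -0.11 and 4.81, and the members were far from uniform. The lower quartile is the value of probes at the lowest level on both tissue arrays (2.33 in aorta and 2.44 in liver), so it was not measured. In all, 45 members (14.2%, with 5.35% for the table) were dim in both tissues.

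**Figure D3:**
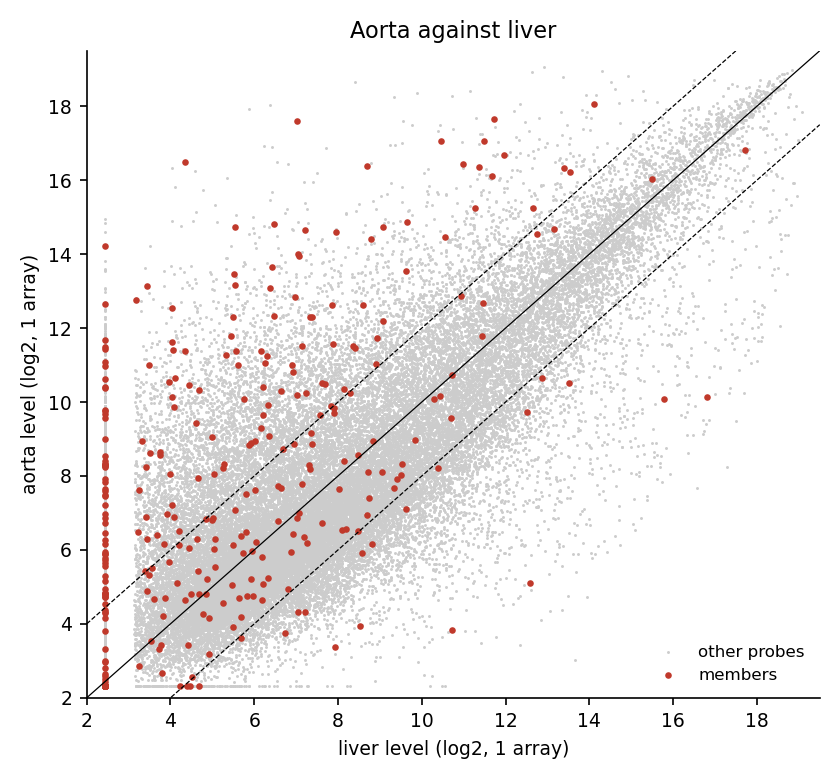
Each point is a probe, with its deposited log2 level in liver on the horizontal and in aorta on the vertical axis (1 array each); the solid line marks equal levels and the dashed lines 4-fold differences. Members (red) crowd above the upper dashed line (159 of 318), and 89 of them sit at the lowest liver value, 2.44.

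The liver array also differed technically. Control spots for the 5′ and 3′ ends of Gapdh differed by 0.29 to 0.64 (5′ minus 3′, log2) in cultured cells and by 0.37 in aorta, but by -1.88 in liver, and those of Pgk1 by -3.92 to -3.10 in culture, -4.58 in aorta and -11.37 in liver. Probes above background made up 62.2% of the liver array, 68.9% of the aorta array and 68.2% to 74.7% of the others. The part of RNA quality and array brightness in the difference between the tissues was not tested. Of the members, 168 (52.8%) were well above background in liver and 266 (83.6%) in aorta, against 81.2% and 91.9% of all probes. Detection in aorta and not in liver was found for 105 members (33.0%, with 13.4% for the table), and the reverse for 7 (2.2%, with 2.75% for the table). For 99 members bright in aorta and dim in liver, with a bound above 1, aorta was at least 1.05-fold to 3838-fold higher, with a median bound of 7.49-fold.

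Probes that met only 1 of the conditions lay closer to the table. Of the 2002 probes lower without Srf but not 2-fold higher with Myocd, 33.5% were at least 4-fold above liver in aorta and 7.29% at least 4-fold below, with a median difference of 0.92. Of the 1939 probes higher with Myocd but not 2-fold lower without Srf, 25.1% were above and 14.2% below, with a median of 0.09. The members, at 50% and a median of 2.02, had the largest share of the 3 sets. The median level in wild-type cells was 7.87 for the members and 8.04 for the probes lower without Srf only. For the probes higher with Myocd only it was lower, at 6.10. The part of this level in the shares of the sets was not tested. No test of the difference between these sets was made, since each tissue has 1 array.

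**Figure D4:**
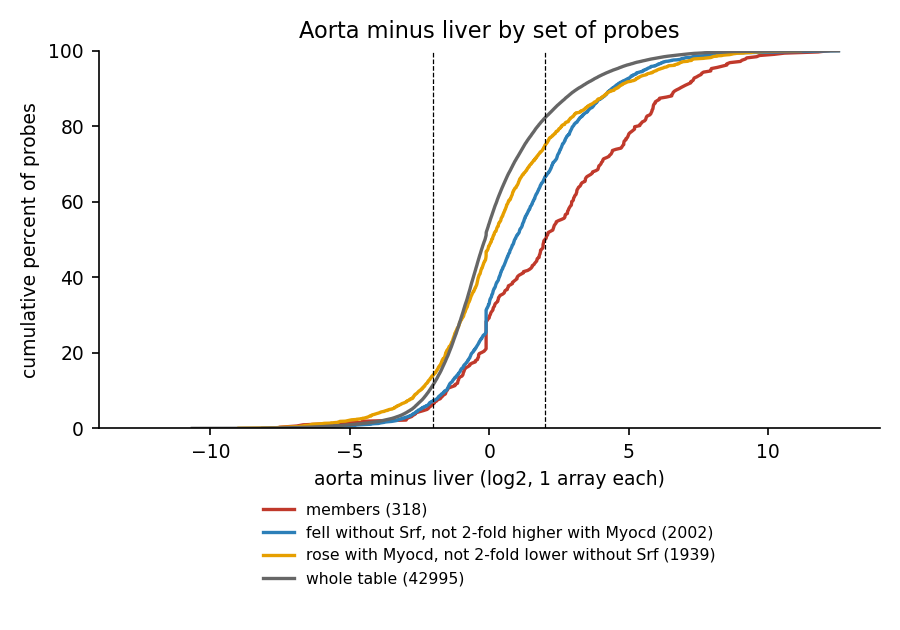
Cumulative percent of probes against aorta minus liver (log2, 1 array each) for the members, the 2 sets that met 1 condition and the whole table, with dashed lines at 4-fold. The members' curve lies furthest to the right above 0, with a median of 2.02 against 0.92, 0.09 and -0.15.

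The share of probes at least 4-fold above liver in aorta rose with the level in wild-type cells, among members and among all probes. The table was divided by that level into 3 sets of nearly equal size. Among the 81 members with a wild-type mean up to 6.08, 23.5% were at least 4-fold above liver in aorta (8.44% of all probes at that level). Among the 109 members in the middle set, up to 8.87, the share was 42.2% (15.4% of all probes), and among the 128 above it was 73.4% (29.5% of all probes). The members' share lay above that of all probes in each of the 3 sets. The first set also held 43 of the 47 members dim on both knockout arrays.

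The 5 members with the largest deposited difference of aorta from liver were ASMM10P002465, ASMM10P006969 and ASMM10P005241, the last 2 given above, ASMM10P056924 and ASMM10P000804. Since 4 of them were dim in liver, the order of these 5, and their place above members such as ASMM10P042737, was not measured. ASMM10P002465 stood at 15.17 and 14.80 in wild-type, 10.35 and 10.31 in knockout and 16.54 and 16.61 in Myocd cells, with 16.49 in aorta and a dim 4.34 in liver, at least 3838-fold lower. ASMM10P056924 stood at 10.32 and 10.14 in wild-type, 8.43 and 8.40 in knockout and 13.86 and 14.04 in Myocd cells, with 12.66 in aorta and a dim 2.44 in liver, at least 271-fold lower. ASMM10P000804 stood at 14.68 and 13.79 in wild-type, 11.62 and 11.87 in knockout and 15.91 and 16.16 in Myocd cells, with 13.13 in aorta and a dim 3.44 in liver, at least 374-fold lower. All 5 were bright in aorta, and 4 were dim in liver.

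At the other end, 5 members were far higher in liver. ASMM10P009859 stood at 6.21 on both wild-type arrays, 4.70 and 4.75 in knockout, 7.43 and 7.40 in Myocd cells, 5.11 in aorta and 12.59 in liver, 179-fold above aorta. ASMM10P016898 stood at 5.05 and 5.11 in wild-type and 6.59 and 6.61 in Myocd cells, was dim in knockout cells and aorta, and reached 10.72 in liver, at least 108-fold above aorta. ASMM10P011138 was bright everywhere, with 13.57 and 14.23 in wild-type, 11.40 and 11.65 in knockout, 15.01 and 14.99 in Myocd cells, 10.14 in aorta and 16.8 in liver, 102-fold above aorta. Its level in aorta was below that of the knockout cells. ASMM10P032788 stood at 10.08 in aorta and 15.78 in liver, 52.1-fold higher, against 6.91 and 7.30 in wild-type cells. ASMM10P017434 was dim in aorta and reached 8.53 in liver, at least 23.7-fold higher, and had risen from 4.80 and 5.44 to 9.87 and 10.02 with Myocd. ASMM10P032788 was also higher in aorta than in any cultured group (8.60 and 8.53 with Myocd), while the other 4 lay in aorta below their wild-type cells.

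The 159 members at least 4-fold higher in aorta did not stand apart from the others in the size of the rise with Myocd. Their median rise was 1.77, against 1.76 for the 139 members within 4-fold and 2.02 for the 20 members at least 4-fold higher in liver. Their median fall was -1.76, against -1.47 and -1.80. The 3 sets also differed in wild-type level, with medians of 9.82, 6.61 and 5.97, and the part of this level in the falls was not tested. Of the 139 members within 4-fold, 44 were dim in aorta and 62 in liver, so for many of them the tissue difference was not measured.

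Set against the cultured cells, aorta did not as a rule stand at the Myocd level. These comparisons share arrays that the rule used and are given as a description. Aorta and wild-type cells were also on different slides. Aorta was at least 4-fold above wild-type cells at 57 members (17.9%, with 8.19% for the table) and at least 4-fold below at 91 (28.6%, with 10.9% for the table), with a median difference of -0.66. Among probes lower without Srf only, 3.15% were higher in aorta and 58.7% lower. Among those higher with Myocd only, 25.9% were higher and 6.91% lower. The members lay between these sets in both directions.

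Against Myocd cells, aorta was at least 4-fold higher at 10 members (3.14%, with 8.08% for the table) and at least 4-fold lower at 187 (58.8%, with 10.2% for the table). The rule took probes that were high in the Myocd cells, so nothing is read from the second count. By its place among the group means, aorta was above the Myocd mean at 37 members, between wild-type and Myocd at 96, between knockout and wild-type at 74, and at or below the knockout mean at 111. In 94 members aorta was nearer to the Myocd mean than to the others. These counts include dim levels: 266 of the 318 members were well above background in aorta and 245 on both knockout arrays. The order of dim levels was not measured, and the shares of all probes were not counted. On the deposited values aorta thus ranged over the whole scale set by the cultured groups.

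Liver was at least 4-fold above wild-type cells at 26 members (8.18%, with 15.8% for the table) and at least 4-fold below at 206 (64.8%, with 23.4% for the table), with a median difference of -2.77. It lay at or below the knockout mean at 207 members and above the Myocd mean at 23. Dim levels are included here too, and 168 members were well above background in liver. Liver was on a different slide from the wild-type and knockout cells. Taking both tissues against wild-type cells, 29 members were at least 4-fold higher in aorta and lower in liver, 103 were within 4-fold in aorta and lower in liver, and 74 were lower in both. Higher levels in both were found for 12, and lower in aorta but higher in liver for 2, ASMM10P011138 and ASMM10P040384. In 55 members both tissues were within 4-fold of the cultured cells.

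Some members carry consecutive numbers in their identifiers, and the files do not say whether such probes read the same transcript. The 317 ASMM10P members had 477 neighbours by number in the table, counted once for each member beside them, of which 62 (13.0%) were members themselves, where members are 0.74% of the table. In all, 54 members lay in 23 runs of 2 or more. The 408 different neighbours that were not members had a median fall of -0.09 and a median rise of 0.04, close to the table. Counting 1 member per run, a choice made after seeing the data, 143 of 287 members (49.8%) were at least 4-fold above liver in aorta.

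The 5 members ASMM10P006184 to ASMM10P006188 were bright in culture and alike in their differences, with falls from -1.36 to -1.15 and rises from 1.41 to 1.66. They stood at 11.39 to 12.62 in aorta and at 4.03 to 8.60 in liver. In each of the 5 the first wild-type array lay above the second, for example at 13.91 and 12.92 in ASMM10P006184, so they moved together between replicates too. In the 6 members from ASMM10P044853 to ASMM10P044859 rises ran from 2.68 to 3.15. ASMM10P044858 and ASMM10P044859 were dim in the knockout, with falls of at least 2.11-fold and 1.72-fold, and the other 4 had falls from -1.70 to -1.32. Liver was above aorta in 5 of the 6, by 0.93 to 1.56 on the log2 scale, and below it in ASMM10P044859, by 0.65.

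The 5 members from ASMM10P056764 to ASMM10P056771 had falls from -1.46 to -1.27 and rises from 1.24 to 1.44, and stood at 3.93 to 5.23 in aorta and 4.77 to 6.19 in liver. Each of the 5 had the lower value in aorta, although ASMM10P056771 was dim in aorta and ASMM10P056764 in liver. Between them by number lie ASMM10P056765 and ASMM10P056770, which are not members. ASMM10P056765 stood at the lowest value on all wild-type and knockout arrays, so that its fall was not measured. On the Myocd arrays it stood at 4.99 and 4.95, and the size of this rise was not measured. ASMM10P056770 rose by 2.62 with Myocd and, at 4.22 and 4.62 in wild-type and 4.31 and 4.58 in knockout cells, overlapped between these groups.

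ASMM10P010054 to ASMM10P010056 stood at or near background without Srf. The first stood at 7.71 and 7.99 in wild-type, 2.51 and 2.33 in knockout and 9.11 and 9.14 in Myocd cells. It was dim in the knockout, so its fall was at least 18.4-fold. The second stood at 8.51 and 8.88, 3.19 and 3.47, and 10.02 and 10.03 in the same groups, and was dim in the knockout, which gives the fall of at least 32.5-fold named above. All 3 were dim in both tissues, at 2.33 to 3.31 in aorta and 2.44 to 3.72 in liver. ASMM10P000802 to ASMM10P000804 were the opposite in the vessel, with falls from -2.49 to -1.96. Aorta exceeded liver by 5.66 and 4.10 on the log2 scale in the first 2, and the third, dim in liver, is the ASMM10P000804 given above.

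**Figure D5:**
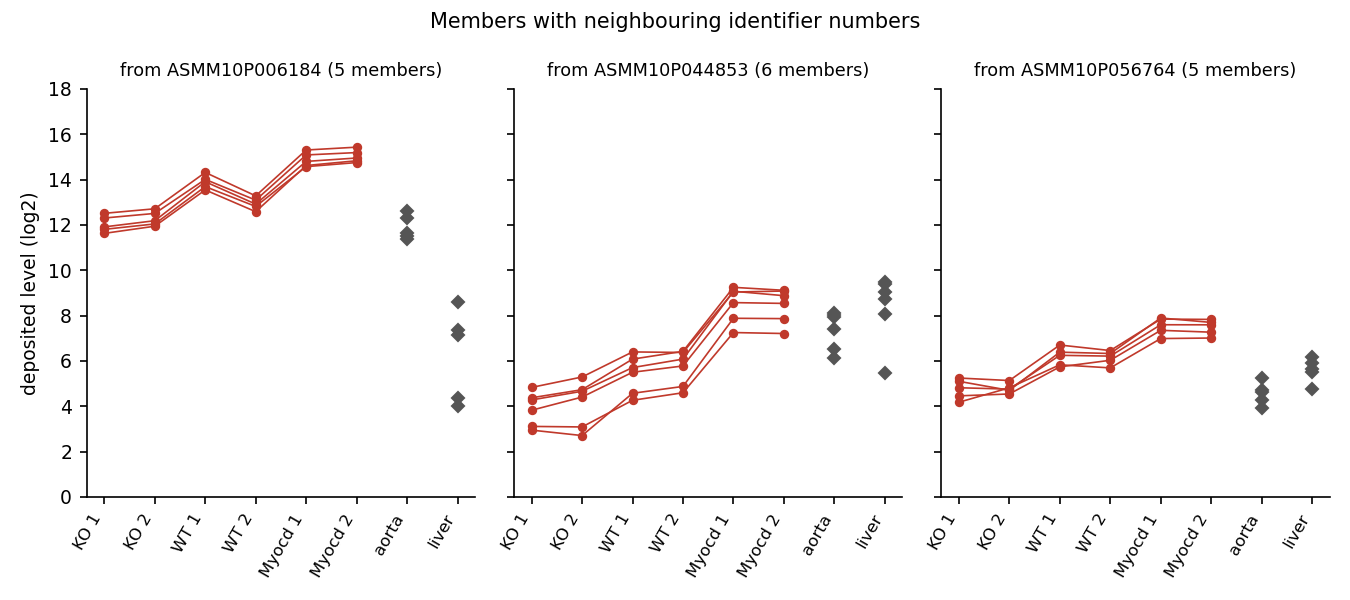
Deposited log2 level on each array for the members of 3 runs of neighbouring identifier numbers; red lines join the cultured arrays of 1 member and grey diamonds are aorta and liver. The run from ASMM10P006184 stands at 11.39 to 12.62 in aorta, above its liver values. In the other runs the deposited liver value was above that of aorta in 5 of 6 and 5 of 5 members. ASMM10P056771 was dim in aorta and ASMM10P056764 in liver.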

How the data were processed

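Per the file headers, the intensity of each spot and its well-above-background flag were made by the authors with Agilent Feature Extraction 11.0.1.1, which the submitters' processing notes also name. A second deposited file, a value table by the authors, holds log2 levels of 42995 probes, each flagged above background on 4 or more of 8 arrays. Its normalization was not given in the sources used here; it follows the scanner intensities of the same arrays (Pearson's r across probes 0.997 to 1.00). The rule is defined on this table, so it gave all levels.

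limma 3.58.1 in R 4.3.3 (lmFit, eBayes) was fitted to all 42995 probes over the 6 cultured arrays with 3 residual degrees of freedom, without a replicate block, and p-values were adjusted by Benjamini-Hochberg. The script was tested on simulated data. Alternatives were scanner intensities scaled to the 75th percentile, quantile normalized, or corrected with normexp on the median signal (offset 50), since no mean signal was present, as well as filters, thresholds and left-out arrays.

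Members and lists were chosen with earlier results of these data known. Named members are the 10 with the largest smaller effect, the 3 largest falls and rises, the 5 at each end of aorta minus liver, those nearest the thresholds and members of the small identifier classes. Others (overlapping replicates, dim members, runs of numbers) were chosen after their values were seen. The planned gene lists could not be used, since no member has a symbol. The array files carry an mm9 design, and no coordinates or probe sequences were used.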

Additional observations from a re-analysis of the deposited data

Results flagged for a closer look

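Outside the deposited table the arrays hold 17935 further probes, of which 104 were bright on at least 4 arrays. On the scanner intensities scaled to the 75th percentile, 25 of the 17935 also stood at least 2-fold lower without Srf and at least 2-fold higher with Myocd. They are listed because the report's comparisons do not use these probes. Of the 25, 18 were well above background on both Myocd arrays and 3 on neither, 0 were so on both wild-type arrays, 5 were so in aorta and 3 in liver. Their fall without Srf starts from wild-type levels near or below background.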

How the results depend on the processing

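The number of probes that met the rule was 316 on scanner intensities scaled to the 75th percentile and 324 with quantile normalization, of which 293 and 318 were among the 318 members. It was 159 with normexp, which also changed the signal column and added an offset; which of these mattered was not tested. It was 878 at 1.5-fold in both directions, 124 at 1.5 and 40 at 2 on the log2 scale, and 652 with limma's adjusted p under 0.05 in both contrasts and no fold threshold. Leaving out 1 cultured array gave 311 to 334, and 217 members (68.2%) met the rule without any single array. Aorta was at least 4-fold below wild-type cells at 91 members, 41 with normexp and 146 at 2-fold. For liver the 206 became 128 with normexp. Scaling to the 75th percentile moved the table's median difference of aorta from liver from -0.15 to -0.43, and the members' from 2.02 to 1.72. The members' median was 0.87 with normexp and 1.42 with dim levels raised, and their median fall went from -1.59 to -1.02 with normexp (from 1.77 to 1.42 for the rise). The share of members at least 4-fold higher in aorta was 47.2% with that scaling (15.4% of all probes), 50.6% with quantile normalization (18.2%) and 35.2% with normexp (10.2%).

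Limma's calls without 1 array ranged from 208 to 291 for the knockout and 193 to 287 for Myocd. A replicate block gave 266 and 271. Replicate numbers did not pair the samples (r across probes of the deviations -0.21, -0.04 and 0.06 for the 3 pairs of groups), and with the knockout numbers crossed, an alternative added after seeing the data, the block gave 284 and 287. Among 483 values of named members under alternatives, 133 moved by more than the spread between replicates and 0 reversed. Signal over background limits what can be said of members dim in the knockout or in liver, and 1 array per tissue gives no error there.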
